A study of Mus musculus with 46 samples.

Results

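A set of 10 genes of myostatin, activin and BMP signalling is described here in mouse skeletal muscle: the ligand Mstn, the receptors Acvr2a, Acvr2b and Acvr1b, the extracellular binding proteins Fst, Fstl1 and Fstl3, the intracellular mediators Smad3 and Smad7, and the BMP-responsive gene Tmem100. They are the rows of both count tables whose Ensembl identifier maps to one of these 10 symbols. Of the 10, 9 were among the 17514 genes of the gastrocnemius table and 10 were among the 16987 genes of the spinalis table. Fstl3 was the gene without a row in the gastrocnemius table.

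Myostatin and the activins are secreted ligands of the TGF-β family that bind type II receptors (ACVR2A, ACVR2B), which recruit type I receptors such as ACVR1B and lead to phosphorylation of SMAD2 and SMAD3. Follistatin and its relatives bind the ligands outside the cell, SMAD7 inhibits the pathway from within, and BMP ligands use a neighbouring set of receptors that signal through SMAD1, SMAD5 and SMAD8/9. In skeletal muscle, loss of myostatin gives large muscles, and BMP signalling opposes the myostatin branch in the control of muscle mass.

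The study asked whether the Actn3 genotype, WT or knockout (KO), alters the muscle response to androgens in C57BL6 mice. In the first experiment, gastrocnemius muscles came from male WT and KO mice that underwent orchidectomy (ORX) or a sham operation (SHAM) at 8 to 10 weeks of age and were killed 12 weeks later. In the second, spinalis muscles came from female WT and KO mice that received an empty silastic implant (Empty) or an implant with 10 mg of dihydrotestosterone (DHT) at 4 to 5 weeks of age and were killed after 6 weeks. Of the 46 samples of the series, 45 libraries were used: from gastrocnemius 5 KO-ORX and 6 each of KO-SHAM, WT-ORX and WT-SHAM, with WT-Empty and KO-Empty at 5 each and WT-DHT and KO-DHT at 6 each from spinalis. A sixth labelled KO-ORX sample was not analysed here. Gastrocnemius libraries carry the replicate numbers of the labels. Spinalis libraries are numbered here by column order within each group, and these numbers do not stand for the labelled replicates. Muscle, sex and age differ together between the experiments, so genotype and treatment were compared only within each experiment. The labels do not say that each sample came from a separate animal. Each spinalis column carries a code of its own, whose key is not given in the sources used here, so p-values are read as the spread between these samples.

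Libraries held 43.4 to 50.3 M counts (M, 1000000) in WT-SHAM, 39.9 to 55.4 in WT-ORX, 29.5 to 37.5 in KO-SHAM and 26.7 to 48.5 in KO-ORX. In the spinalis they held 37.3 to 51.2 M in WT-Empty, 34.8 to 53.9 in WT-DHT, 42.5 to 47.8 in KO-Empty and 34.9 to 51.7 in KO-DHT. No KO-SHAM library reached the size of the smallest WT-SHAM library. Levels are given as counts per 1000000 (CPM) on library sizes scaled by edgeR's trimmed mean of M values (TMM). Log2 fold changes are given ± SE, with KO against WT, ORX against SHAM and DHT against Empty. The SE was derived from the edgeR fit, as the absolute log2 fold change divided by the square root of the F statistic.

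Actn3, the gene deleted in the KO mice, followed the labels in all 45 libraries. WT-SHAM libraries had 5977 to 7052 CPM (median 6724) and KO-SHAM libraries 35.8 to 54.7 CPM (median 46.5). WT-DHT libraries had 6164 to 7703 CPM (median 7276) and KO-DHT libraries 61.4 to 77.5 CPM (median 66.8). In the other groups, Actn3 was at 7826 to 9617 CPM (median 8964) in WT-ORX, 34.3, 45.3, 49.6, 53.1 and 44.4 CPM in KO-ORX, 9641, 9812, 9946, 8592 and 10353 in WT-Empty and 67.5, 83.2, 78.4, 56.6 and 62.1 in KO-Empty. Every WT library was above every KO library in its muscle. Fast myofibre markers were abundant in both muscles, with Myh4 at a mean of 48162 CPM in WT-SHAM and 81283 in WT-Empty. Among the KO-ORX libraries, 2 stood apart in fibro-adipogenic markers, an 8-gene list led by Col1a2 of connective-tissue progenitor cells. The summed list reached 4461 CPM in KO-ORX 1 and 2790 in KO-ORX 2, against 1159, 1597 and 1260 in KO-ORX 3, 4 and 5. The same pair were the smallest KO-ORX libraries, so results that change without them are given with and without them.

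Differences were called at an edgeR adjusted p of at most 0.01, or 0.05 for the interaction, which asks whether the treatment response differs between genotypes. The listed genes, and the pathway and marker lists below, were chosen with earlier results of these data known. Their counts and medians, set beside those of all genes, thus describe the lists and do not test them. ORX in WT called 2 of 9 listed genes (both lower), where 5.45% of all genes were called, and ORX in KO called 1 of 9 (lower) against 5.57% of all genes. With library-size scaling in place of TMM these counts were 1 and 0, and the count in KO was also 0 without KO-ORX 1 and 2 together and without any 1 of KO-SHAM 1, KO-SHAM 2, KO-ORX 2, KO-ORX 4 or KO-ORX 5. The KO genotype called 4 of 9 under SHAM against 5.30% and 4 of 9 under ORX against 3.80%, all lower in KO, and the count under ORX was 2 without KO-ORX 1 and 2. In the spinalis, DHT in WT called 3 of 10 (2 higher, 1 lower) against 11.3%, and DHT in KO called 0 of 10 against 4.62%. At an unadjusted p under 0.05, 3 of the 10 passed for DHT in KO, and DESeq2 and limma-voom also called 0 at an adjusted p of 0.01. The KO genotype called 4 of 10 with empty implants (all lower) against 4.25%, and 5 of 10 with DHT (4 lower, 1 higher) against 11.6%. The count with empty implants was 2 without KO-Empty 3.

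The interaction called 0 of 9 in the gastrocnemius against 0.0228% of all genes and 2 of 10 (Mstn and Tmem100) in the spinalis against 3.24%. For that count of 0, edgeR gave 2 genes at an unadjusted p under 0.05, limma-voom called 0 and DESeq2 called 1. The median log2 fold change of the listed genes was −0.26 for genotype under SHAM and −0.44 under DHT, where all genes had medians of −0.01 and 0.01. The CPM ranges of the groups did not overlap for 2 of 9 listed genes for ORX in WT (6.04% of all genes), 1 of 9 for ORX in KO (5.34%), 4 of 9 for genotype under SHAM (5.10%) and 4 of 9 under ORX (5.60%). In the spinalis this held for 3 of 10 with DHT in WT (11.3%), 3 of 10 for genotype with empty implants (6.77%) and 5 of 10 with DHT (10.4%), and DHT in KO left all 10 overlapping, where 6.08% of all genes did not overlap. Comparisons within a muscle share control libraries, so their counts are not independent.

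**Figure D1:**
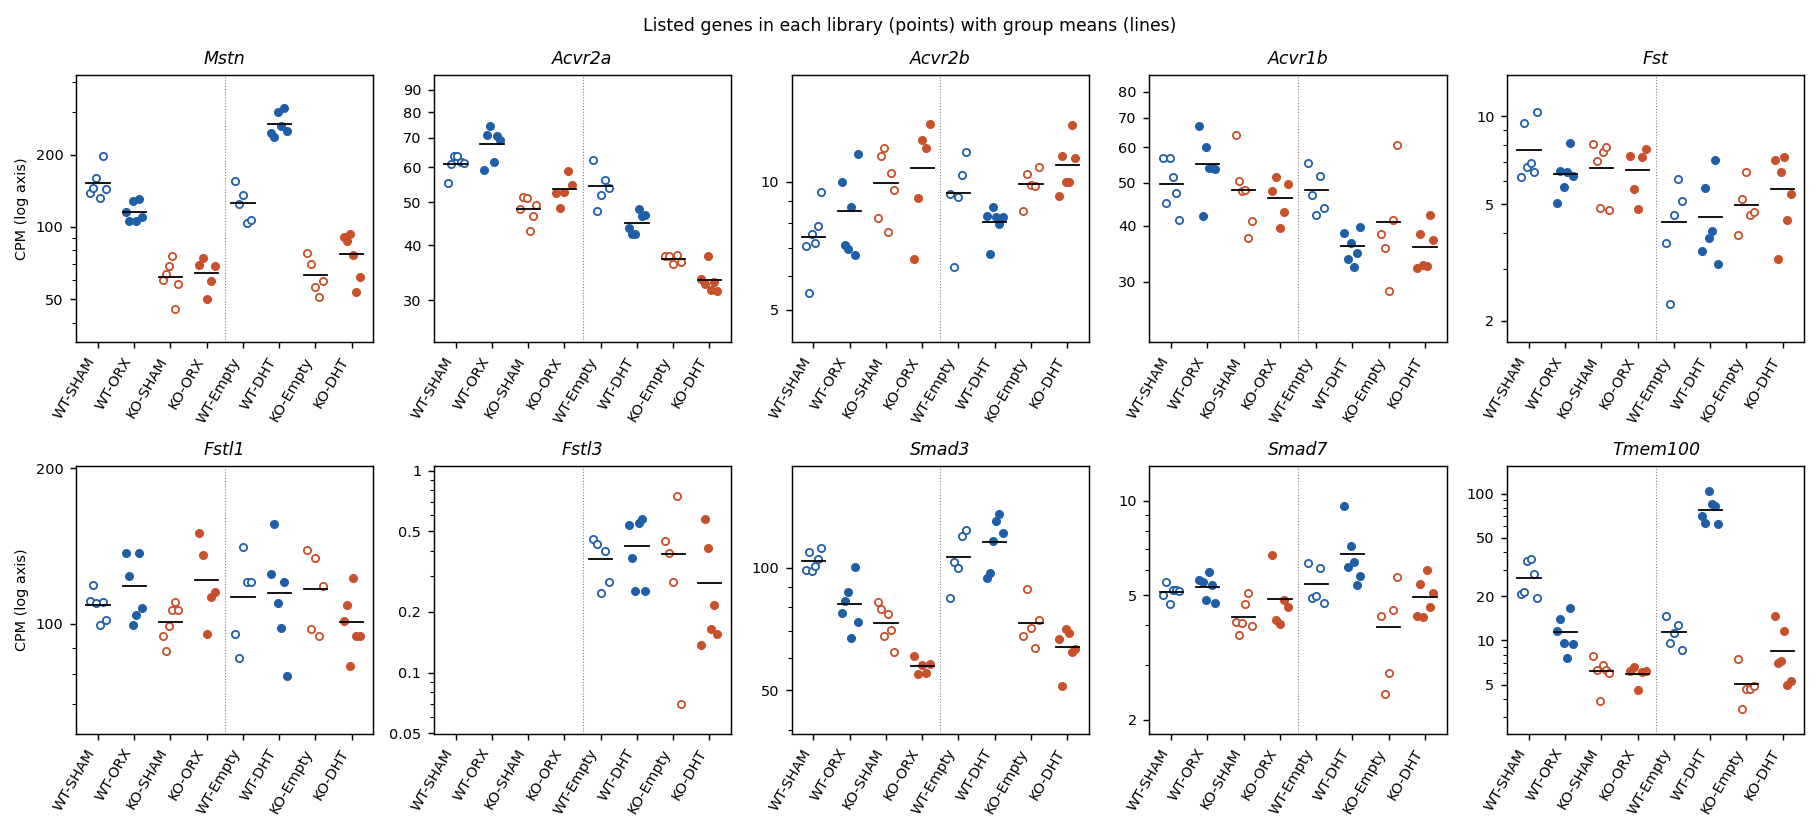
CPM of each listed gene in each library, on a log axis. Each point is 1 library (open, SHAM or Empty; filled, ORX or DHT; blue, WT; red, KO), horizontal lines are group means, and the dotted line separates gastrocnemius from spinalis. Mstn and Tmem100 in WT-DHT lie above every other spinalis library, and Fstl3 has no gastrocnemius values.

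Mstn encodes myostatin, the ligand that restrains muscle growth. On a scale of CPM per kb of exon, it was the most abundant of the TGF-β family ligands with a row in every group, at 56.4 ± 8.74 (SD, n = 6) among WT-SHAM libraries and 22.9 ± 3.79 (n = 6) among KO-SHAM libraries. The second ligand on that scale, Tgfb3, was at 11.4 and 9.18 in the same groups. WT-SHAM libraries had 131 to 197 CPM (median 145) of Mstn, and KO-SHAM libraries had 45.6 to 75.5 CPM (median 62.0). The 2 groups did not overlap: all 6 KO-SHAM libraries were below the lowest WT-SHAM library. Mstn was 2.46-fold lower in KO-SHAM (log2 fold change −1.30 ± 0.11, edgeR adjusted p = 5.7e-09). Because these are bulk muscle samples, fewer cells of a type and less RNA per cell cannot be told apart, here and for each gene that follows.

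After ORX the genotypes also differed. WT-ORX libraries had 106 to 130 CPM (median 112) of Mstn, and the KO-ORX libraries had 69.5, 74.5, 49.9, 59.9 and 68.9. All 5 KO-ORX libraries lay below the lowest WT-ORX library, the pair with high fibro-adipogenic sums included. The log2 fold change was −0.85 ± 0.11, edgeR adjusted p = 1.6e-05, and Mstn was also called without KO-ORX 1 and 2. Within WT, every ORX library was below every SHAM library, by a narrow gap between the highest WT-ORX (130) and the lowest WT-SHAM library (131). Its log2 fold change with ORX in WT of −0.40 ± 0.11 missed the threshold (edgeR adjusted p = 0.016). It passed with DESeq2 (adjusted p = 0.0038), with only the WT groups in the edgeR fit (0.0071) and without KO-SHAM 5 (0.0056) or KO-ORX 3 (0.0087), and the adjusted p ranged from 0.0038 to 0.055 over all alternatives. In KO, SHAM and ORX libraries overlapped, with a log2 fold change of 0.06 ± 0.11, edgeR adjusted p = 0.82. That small value was −0.059 without KO-ORX 1 and 2 together and −0.021 without KO-SHAM 5, and it was also just below 0 without KO-ORX 2. The interaction was 0.45 ± 0.16, edgeR adjusted p = 0.31, so a difference between the genotypes in the ORX response of Mstn did not pass. By group mean, the order was WT-SHAM (153 ± 23.6 CPM, SD, n = 6), WT-ORX (116 ± 11, n = 6), KO-ORX (64.6 ± 9.73, n = 5) and KO-SHAM (62.0 ± 10.2, n = 6), and the last 2 lay within each other's spread.

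In the spinalis, Mstn was highest with DHT in WT. The WT-Empty libraries had 155, 125, 136, 104 and 107 CPM, and WT-DHT libraries had 236 to 313 CPM (median 257). Each WT-DHT library exceeded each WT-Empty library. DHT raised Mstn 2.14-fold in WT (log2 fold change 1.10 ± 0.14, edgeR adjusted p = 2.2e-06).

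In KO the same implant gave a smaller difference. The KO-Empty libraries had 77.9, 70.2, 56.3, 51.0 and 59.7 CPM of Mstn, and KO-DHT libraries had 53.7 to 93.4 CPM (median 81.9). These groups overlapped, and the log2 fold change of 0.29 ± 0.14 was not called (edgeR adjusted p = 0.18). The response itself differed between genotypes, with an interaction of −0.80 ± 0.19, edgeR adjusted p = 0.018. KO was 1.99-fold lower than WT with empty implants (log2 fold change −0.99 ± 0.14, edgeR adjusted p = 8.5e-05) and 3.47-fold lower with DHT (−1.79 ± 0.13, edgeR adjusted p = 5.7e-10), without overlap in either case. Group means ran from WT-DHT (268 ± 31.2 CPM, SD, n = 6) through WT-Empty (125 ± 21.3, n = 5) and KO-DHT (77.3 ± 16.3, n = 6) to KO-Empty (63.0 ± 10.9, n = 5), and the last 2 did not differ beyond their spread.

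Gdf11, the closest paralogue of Mstn and a ligand of the same receptors, had the pattern most like it. Likeness was measured as the root mean square difference of the 8 group means of log2 CPM, centred within each muscle, over 13447 genes. Gdf11 was at 0.09 from Mstn, where the median gene was at 0.71. WT-SHAM libraries had 17.2 to 26.0 CPM (median 19.9) of Gdf11 and KO-SHAM libraries 8.39 to 10.2 CPM (median 8.57), so the groups were apart. The KO-ORX libraries had 7.80, 8.74, 6.69, 8.52 and 8.56 CPM, all below the WT-ORX libraries, which were at 15.8 to 19.3 CPM (median 17.9). In the spinalis, the WT-Empty libraries had 13.2, 9.31, 14.1, 11.9 and 12.3 CPM and WT-DHT libraries 18.6 to 27.2 CPM (median 23.8), again without overlap. The KO-Empty libraries had 4.06, 6.93, 5.69, 8.10 and 4.81 CPM and KO-DHT libraries 5.24 to 8.60 CPM (median 7.63), which overlapped.

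The KO genotype lowered Gdf11, which is also among the ligands of the pathway list, under SHAM (log2 fold change −1.24 ± 0.09, edgeR adjusted p = 3.5e-10), ORX (−1.15 ± 0.10, edgeR adjusted p = 1e-08), empty implants (−1.04 ± 0.16, edgeR adjusted p = 0.00014) and DHT (−1.67 ± 0.14, edgeR adjusted p = 6.1e-09). DHT raised it in WT (0.96 ± 0.15, edgeR adjusted p = 3.7e-05). Its interaction with DHT, −0.63 ± 0.21, edgeR adjusted p = 0.12, was not called. Mstn and Gdf11 share no run longer than 12 bases between their annotated transcripts. Other near patterns to that of Mstn were those of Plekho1 (0.13), Nos1 (0.19), Enho (0.22) and AC154912.3 (0.22). Plekho1 had group means from 5.49 CPM in KO-ORX to 36.3 in WT-DHT, and Nos1, the neuronal nitric oxide synthase of muscle fibres, from 18.6 in KO-ORX to 55.6 in WT-DHT. AC154912.3 varied widely within groups, from 0.529 to 13.8 CPM within WT-SHAM.

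**Figure D2:**
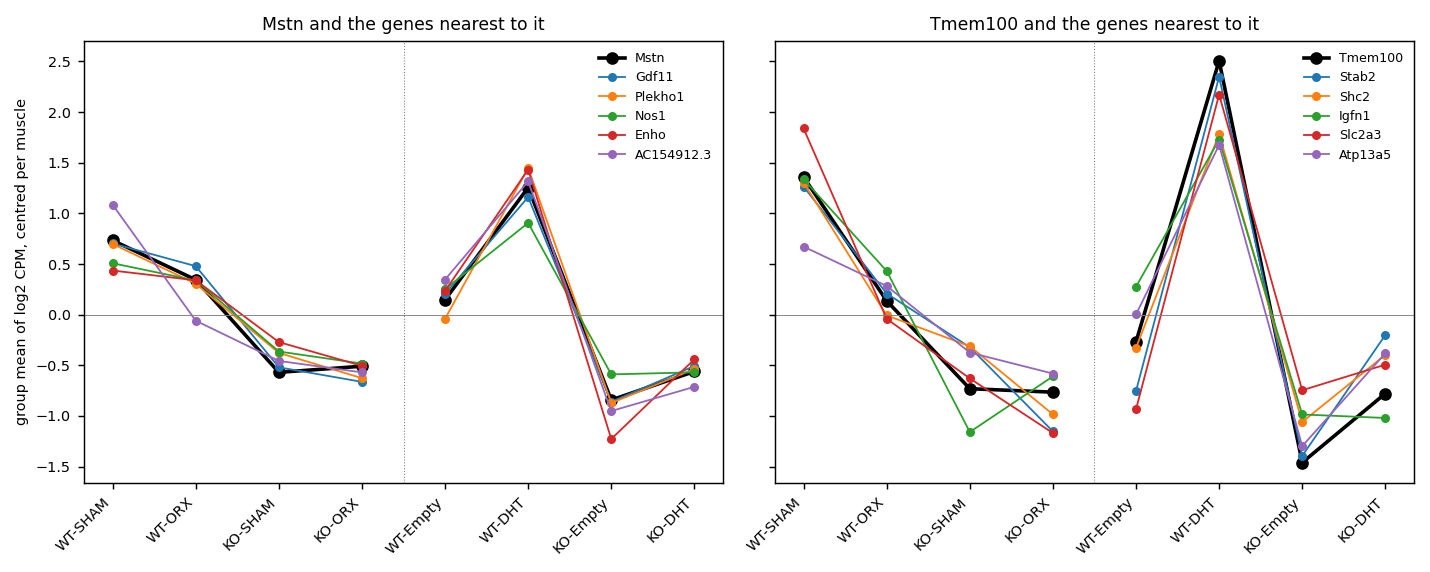
Group means of log2 CPM, centred within each muscle (y axis), in the 8 groups (x axis) for Mstn and Tmem100 (black) and for the 5 genes nearest to each (colours). Mstn and Gdf11 run close together in both muscles, and the genes near Tmem100 peak in WT-DHT.

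Since Mstn and Gdf11 moved together across genotype and DHT, the 250 bases before the start of each are shown, from the RefSeq promoter table (build GRCm38.p6). That table held 7 of the 10 listed genes, and Tmem100, Fst and Smad7 had no entry. The Mstn window is chr1:53061390-53061639 on the plus strand and the Gdf11 window chr10:128891719-128891968 on the minus strand. Capitals mark matches, on either strand, to an E-box (CANNTG), a Smad-binding motif (GTCTG) or a TATA box (TATAAA), and an androgen response half-site (AGAACA) was searched too. No 2 matches overlapped.

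Mstn: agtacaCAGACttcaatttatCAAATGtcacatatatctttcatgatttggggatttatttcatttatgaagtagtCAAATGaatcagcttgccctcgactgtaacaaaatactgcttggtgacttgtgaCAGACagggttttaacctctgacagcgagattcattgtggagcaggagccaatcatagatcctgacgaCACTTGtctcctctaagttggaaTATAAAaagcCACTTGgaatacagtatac

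Gdf11: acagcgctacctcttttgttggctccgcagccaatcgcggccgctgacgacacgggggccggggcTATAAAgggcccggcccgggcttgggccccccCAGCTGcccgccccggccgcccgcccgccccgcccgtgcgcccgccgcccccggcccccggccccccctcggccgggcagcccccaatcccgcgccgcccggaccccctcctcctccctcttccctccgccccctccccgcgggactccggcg

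The Mstn window held 4 E-boxes, 2 Smad-binding matches and 1 TATA box, and the Gdf11 window 1 E-box and 1 TATA box. Over all 32851 promoter windows of this length, 66.2% held an E-box, 42.2% a Smad-binding match and 12.4% a TATA box. Neither window held the androgen half-site, which 16.1% of windows did. A match describes letters in a window only. The windows differed in base composition, with 38.4% G or C in Mstn and 81.2% in Gdf11.

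Of 26 ligands on the pathway list, 17 had a row in the gastrocnemius and 16 in the spinalis. Under SHAM and under ORX, KO lowered 3 of 17 each (Gdf11, Mstn and Tgfb3), where 2.82% and 2.73% of all genes were lower. Tgfb3 was at 36.3 to 44.6 CPM (median 37.8) in WT-SHAM and 26.7 to 34.2 CPM (median 31.8) in KO-SHAM, apart by a narrow margin, with a log2 fold change of −0.32 ± 0.07, edgeR adjusted p = 0.0019. Its call under ORX (−0.30 ± 0.07, edgeR adjusted p = 0.0055) ended without any 1 of KO-ORX 2, 3, 4 or 5 and WT-ORX 1 or 5 (−0.27 to −0.31) and with library-size scaling (−0.26). With DHT, KO lowered 4 of 16 ligands (these 3 and Bmp8a), against 6.51% of all genes. Bmp8a, a BMP of low abundance, was at 0.462 to 1.25 CPM (median 0.870) in WT-DHT against 0.0376 to 0.226 CPM (median 0.120) in KO-DHT. In the spinalis it met the filter of 0.5 CPM in 2 or more libraries only through WT-DHT, where it was high. ORX in WT called 2 of 17 ligands, against 5.45% of all genes. Bmp8a was lower, with 0.216 to 0.795 CPM (median 0.600) in WT-SHAM and 0 to 0.148 CPM (median 0.0654) in WT-ORX. It met the filter of 0.5 CPM in 2 or more libraries only through WT-SHAM, the group where it was high. The levels of Bmp8a in both muscles are thus given without support drawn from its calls. The counts of ligands and of pathway genes include these calls. Bmp4 was higher (0.59 ± 0.14, edgeR adjusted p = 0.0059), a call that ended without any 1 of WT-SHAM 1, 2, 4, 5 or 6 and WT-ORX 3, 4 or 6 (0.51 to 0.59) and with only the WT groups in the fit (0.59). Bmp3 was the 1 ligand called for ORX in KO (log2 fold change 0.97 ± 0.19, edgeR adjusted p = 0.0010).

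Among the receptors, Acvr2a, the type II receptor of activins and myostatin, was lower in KO in every genotype comparison. WT-SHAM libraries had 55.2 to 63.8 CPM (median 61.7) and KO-SHAM libraries 43.0 to 51.4 CPM (median 48.8), without overlap. WT-ORX libraries had 59.2 to 74.7 CPM (median 69.9) and the KO-ORX libraries 52.6, 48.7, 52.9, 58.9 and 54.6, again apart, with the highest KO-ORX library (58.9) just below the lowest WT-ORX library (59.2). The log2 fold changes were −0.34 ± 0.06, edgeR adjusted p = 0.00025 under SHAM and −0.34 ± 0.06, edgeR adjusted p = 0.00055 under ORX. The call under ORX ended without KO-ORX 1 and 2 together (log2 fold change −0.29, edgeR adjusted p = 0.017) and with library-size scaling in place of TMM (−0.30, 0.014), within a range of 1.1e-05 to 0.017 over all alternatives.

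In the spinalis, the WT-Empty libraries had 62.4, 47.7, 52.0, 56.3 and 54.0 CPM of Acvr2a and the KO-Empty libraries 37.8, 37.8, 36.2, 38.0 and 36.6. The KO-Empty values lay close together and below all 5 WT-Empty values (log2 fold change −0.55 ± 0.07, edgeR adjusted p = 7.1e-06). WT-DHT libraries had 42.4 to 48.2 CPM (median 45.1) and KO-DHT libraries 31.4 to 37.8 CPM (median 32.8), without overlap (−0.43 ± 0.06, edgeR adjusted p = 1.1e-05). DHT lowered Acvr2a in WT (−0.28 ± 0.06, edgeR adjusted p = 0.0024), although the lowest WT-Empty library (47.7) fell within the WT-DHT range, and the call ended when only the WT groups entered the fit (edgeR adjusted p = 0.013, range 0.00043 to 0.013). In KO, DHT gave −0.16 ± 0.06, edgeR adjusted p = 0.11, which was not called. Acvr2a shares 446 of its 5686 exonic bases with Orc4 on the opposite strand, and whether counting used strand is not given in the sources used here. Orc4 gave log2 fold changes of −0.03 ± 0.05 under SHAM, −0.04 ± 0.05 under ORX, −0.19 ± 0.07 with empty implants and −0.22 ± 0.06 with DHT, none of them called by edgeR.

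Acvr2b, the second type II receptor for myostatin, was the 1 listed gene called higher in KO. WT-DHT libraries had 6.77 to 8.71 CPM (median 8.27) and KO-DHT libraries 9.26 to 13.6 CPM (median 10.7), without overlap (log2 fold change 0.44 ± 0.12, edgeR adjusted p = 0.0073). The call ended with limma-voom (adjusted p = 0.011, range 0.0012 to 0.026) and without any 1 of WT-DHT 1, 2, 4, 5 or 6 and KO-DHT 2, 5 or 6 (0.37 to 0.46). With empty implants the WT values of 9.38, 6.32, 9.21, 10.4 and 11.8 CPM enclosed the KO values of 8.53, 10.4, 9.86, 9.79 and 10.9. In the gastrocnemius, WT-SHAM libraries had 5.48 to 9.45 CPM (median 7.37) and KO-SHAM libraries 7.64 to 12.0 CPM (median 10.0), which overlapped, and the log2 fold changes of 0.42 ± 0.16 under SHAM and 0.35 ± 0.17 under ORX were not called (edgeR adjusted p = 0.11 and 0.25). Without KO-ORX 1 and 2 the value under ORX was 0.58, edgeR adjusted p = 0.040 (range 0.040 to 0.50 over all alternatives). A different effect of genotype on Acvr2b with and without DHT was not called (interaction 0.37 ± 0.17, edgeR adjusted p = 0.29).

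Acvr1b, the type I receptor ALK4, was called in no comparison by edgeR. WT-Empty libraries had 55.5, 47.0, 42.3, 51.7 and 43.8 CPM and WT-DHT libraries 32.3 to 39.8 CPM (median 35.7), all 6 of them below the lowest WT-Empty library. The log2 fold change with DHT in WT was −0.42 ± 0.13, edgeR adjusted p = 0.023. It passed with DESeq2 (adjusted p = 0.0093), with library-size scaling (0.0088), with only the WT groups in the fit (0.0017) and without KO-Empty 3 (0.0096) or KO-Empty 5 (0.0024), in a range of 0.0017 to 0.067. The KO-Empty libraries were spread from 28.6 to 60.6 CPM and enclosed the KO-DHT range of 32.1 to 42.4. Gastrocnemius group means ran from 46.3 to 55.2 CPM, with overlap between all 4 groups. On the CPM per kb scale in WT-SHAM, Acvr1b was at 11.3 ± 1.43 and Acvr2a at 10.8 ± 0.548 (SD, n = 6), within each other's spread, and Acvr2b was lower at 1.89 ± 0.327.

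Of the 17 receptors and co-receptors on the pathway list, all with a row in both tables, KO lowered 4 under SHAM, where 2.82% of all genes were lower, and raised 0. Beside Acvr2a these were Bmpr1b (−0.51 ± 0.08, edgeR adjusted p = 4.9e-05), a type I BMP receptor, Rgma (−0.53 ± 0.09, edgeR adjusted p = 0.00024), a BMP co-receptor, and Tgfbr1, whose call (−0.23 ± 0.05, edgeR adjusted p = 0.0032) ended without KO-SHAM 6 (−0.21), with library-size scaling (−0.25) and with only the SHAM groups in the fit (−0.22). Under DHT, KO lowered 3 of 17 (Acvr2a, Bmpr1b and Bmpr1a, against 6.51% of all genes) and raised 2 (Acvr2b and Rgmb, against 5.13%). The call of Rgmb, a BMP co-receptor (0.35), ended without any 1 of WT-DHT 1, 3, 4, 5 or 6 and KO-DHT 1, 2, 5 or 6 (0.31 to 0.36), and both of these calls ended without any 1 of WT-DHT 1, 4, 5 or 6 and KO-DHT 2, 5 or 6. The call of Bmpr1a, a type I BMP receptor, ended with library-size scaling (−0.18). Bmpr1b was at 13.4 to 20 CPM (median 13.9) in WT-DHT and 5.75 to 9.72 CPM (median 7.67) in KO-DHT, which did not overlap (log2 fold change −0.96 ± 0.11, edgeR adjusted p = 7e-07). For Rgma, ORX and DHT gave opposite signs. ORX raised it in KO (0.75 ± 0.09, edgeR adjusted p = 4.7e-06), and DHT lowered it in WT (−0.86 ± 0.13, edgeR adjusted p = 2.9e-05). The calls for ORX in WT (0.35 ± 0.09, edgeR adjusted p = 0.0078) and DHT in KO (−0.54 ± 0.13, edgeR adjusted p = 0.0081) were less stable. The first ended without any 1 of WT-SHAM 1 to 5, WT-ORX 1, 2, 4, 5 or 6 and KO-SHAM 5 (0.31 to 0.36) and with library-size scaling (0.39). The second ended with limma-voom (−0.54) and without any 1 of KO-Empty 1, 3, 4 or 5 and KO-DHT 2 to 6 (−0.51 to −0.57).

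The extracellular binding proteins on the list did not pass in any comparison. Fst encodes follistatin, which binds activins and myostatin. Its gastrocnemius values ran from 4.78 CPM, in a KO-SHAM library, to 10.3, in a WT-SHAM library, and its spinalis values from 2.27, in a WT-Empty library, to 7.28, in a KO-DHT library. The groups of each muscle overlapped for Fst, with group means of 6.35 to 7.68 CPM and 4.35 to 5.66 CPM. Fstl1, a secreted follistatin-like glycoprotein, had the highest level of the 3 on the CPM per kb scale, at 22.1 ± 1.40 in WT-SHAM (SD, n = 6) against 1.67 ± 0.381 for Fst. The KO-ORX libraries had 150, 136, 95.8, 113 and 115 CPM of Fstl1 and KO-SHAM libraries 88.6 to 110 CPM (median 103). The log2 fold change with ORX in KO was 0.27 ± 0.09, edgeR adjusted p = 0.066, and within KO the highest values were those of KO-ORX 1 and 2. Those libraries also had the highest fibro-adipogenic sums, and without them the log2 fold change was 0.097, edgeR adjusted p = 0.62 (range 0.013 to 0.62 over all alternatives). Fstl3, an inhibitor of activin and myostatin, had 3 to 35 counts per spinalis library, and 47.3% of its exonic bases overlap Prss57. Its log2 fold changes ran from −0.61 ± 0.41 for genotype with DHT to 0.21 ± 0.42 for DHT in WT, with none called.

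Of 21 inhibitors and binding proteins on the pathway list, 17 had a row in the gastrocnemius and 18 in the spinalis. Among them, Bmper, a secreted BMP-binding protein, had opposite signs with ORX and DHT. WT-SHAM libraries had 12.3 to 17.3 CPM (median 15.0) and WT-ORX libraries 7.82 to 11.6 CPM (median 10.2), so ORX libraries were lower without overlap. With DHT, KO libraries rose to 19.1 to 21.3 CPM (median 20.5) from a KO-Empty range of 6.07 to 8.69. ORX lowered Bmper in WT (−0.57 ± 0.09, edgeR adjusted p = 8.1e-05) and in KO (−0.49 ± 0.10, edgeR adjusted p = 0.0014), and DHT raised it in WT (1.03 ± 0.09, edgeR adjusted p = 4.2e-09) and KO (1.40 ± 0.09, edgeR adjusted p = 9.4e-11). Its call for ORX in KO ended with library-size scaling (−0.39), and genotype did not pass for Bmper in any comparison. Ltbp4 (0.96 ± 0.12, edgeR adjusted p = 4.1e-06) and Ltbp3 (0.64 ± 0.12, edgeR adjusted p = 0.00076), matrix proteins that hold latent TGF-β, were higher with ORX in KO.

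Smad3, the mediator that carries the myostatin and activin signal to the nucleus, was lower in KO in all 4 genotype comparisons and lower after ORX in both genotypes. WT-SHAM libraries had 98.2 to 112 CPM (median 103) and WT-ORX libraries 67.3 to 100 CPM (median 80.2). KO-SHAM libraries had 62.1 to 82.3 CPM (median 73.9) and the KO-ORX libraries 60.8, 54.8, 57.7, 55.3 and 58.0. The KO-ORX values lay closest together and below every other gastrocnemius library, while 1 WT-ORX library (WT-ORX 5, at 100) fell inside the WT-SHAM range.

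ORX lowered Smad3 by the same log2 fold change in both genotypes, −0.35 ± 0.07, edgeR adjusted p = 0.0021, in WT and −0.35 ± 0.08, edgeR adjusted p = 0.0040, in KO. With library-size scaling neither call held (−0.31, edgeR adjusted p = 0.016 in WT, and −0.24, adjusted p = 0.065 in KO), and that scaling moved the median log2 fold change of all genes from 0.01 to 0.12 for ORX in KO. The call in KO also ended without KO-ORX 1 and 2 together (−0.36, edgeR adjusted p = 0.020) and without any 1 of KO-SHAM 1, KO-SHAM 2, KO-ORX 2, KO-ORX 4 or KO-ORX 5 (−0.32 to −0.36). Over all alternatives the adjusted p ranged from 0.00012 to 0.016 in WT and 0.00031 to 0.065 in KO. The KO genotype lowered Smad3 under SHAM (−0.51 ± 0.08, edgeR adjusted p = 4.2e-05) and under ORX (−0.51 ± 0.08, edgeR adjusted p = 0.00011), and these groups did not overlap.

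In the spinalis, the WT-Empty libraries had 84.5, 103, 99.9, 120 and 124 CPM of Smad3 and the KO-Empty libraries 67.9, 89.0, 71.4, 63.4 and 74.6. These groups overlapped, since KO-Empty 2 (89.0) was above WT-Empty 1 (84.5). WT-DHT libraries had 94.4 to 136 CPM (median 119) and KO-DHT libraries 51.4 to 70.7 CPM (median 65.1), without overlap. KO lowered Smad3 with empty implants (log2 fold change −0.54 ± 0.12, edgeR adjusted p = 0.0040) and with DHT (−0.86 ± 0.11, edgeR adjusted p = 1.9e-06). The call with empty implants ended with only those groups in the fit (edgeR adjusted p = 0.016, range 0.00021 to 0.016) and without any 1 of WT-Empty 4 or 5 and KO-Empty 1, 3 or 4 (−0.47 to −0.53). DHT itself called Smad3 in neither genotype. Smad7, the inhibitory Smad, was called nowhere. It was at 2.42 to 9.66 CPM in the spinalis and 3.72 to 6.72 in the gastrocnemius, with log2 fold changes for genotype of −0.26 ± 0.11 under SHAM, −0.46 ± 0.19 with empty implants and −0.45 ± 0.17 with DHT (edgeR adjusted p = 0.13, 0.14 and 0.066).

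Of 18 Smads and Smad regulators, 18 had a row in the gastrocnemius and 17 in the spinalis. KO lowered 2 of 18 under SHAM, 1 of 18 under ORX and 3 of 17 with empty implants, and raised 0 in each. Over all genes, 2.82%, 2.73% and 2.50% were lower in these comparisons, and the list medians were −0.08, −0.03 and −0.18. KO lowered 7 of 17 with DHT and raised 0, against 6.51% of all genes lower, and the median log2 fold change of the list was −0.26 against 0.01 over all genes. These were Smad3, the common mediator Smad4, the ubiquitin ligases Nedd4l and Smurf2, the phosphatase Ppm1a, and the repressors Skil and Tgif1. The call of Smad4 ended without WT-DHT 4, KO-DHT 2 or KO-DHT 6 (−0.24 to −0.25) and with library-size scaling (−0.18). Tgif1 (−0.81 ± 0.14, edgeR adjusted p = 0.00013) and Skil (−0.67 ± 0.10, edgeR adjusted p = 2.3e-05) were the 2 repressors. Nedd4l was at 41.4 to 57.5 CPM (median 53.2) in WT-DHT, above the WT-Empty range of 24.5 to 33.1, and at 26.9 to 39.2 CPM (median 29.4) in KO-DHT. DHT raised Nedd4l in WT (0.82 ± 0.10, edgeR adjusted p = 9.9e-07), and the interaction was −0.58 ± 0.14, edgeR adjusted p = 0.015, a call that ended with library-size scaling (−0.55). ORX lowered 3 of 18 in WT (Smad3, Nedd4l and Ppm1a), where 3.41% of all genes were lower, and 3 of 18 in KO (Smad3, Ppm1a and Zfyve9), where 3.58% were. It raised 1 in KO (Ski, against 1.99%). In WT, the calls of Nedd4l and Ppm1a ended with library-size scaling (−0.24 and −0.12). That of Nedd4l also ended without WT-SHAM 4 (−0.25), and that of Ppm1a without any 1 of WT-SHAM 3, 4 or 6 and WT-ORX 4 or 6 (−0.13 to −0.15) and with only the WT groups in the fit (−0.16). In KO, each of the 4 calls ended without KO-ORX 4 and without KO-ORX 1 and 2 together. With library-size scaling, Ppm1a (−0.076) and Zfyve9 (−0.069) were not called in KO, and with only the KO groups in the fit Ppm1a (−0.18), Zfyve9 (−0.18) and Ski (0.42) were not. The call of Zfyve9 also ended without any 1 of KO-SHAM 2, 3 or 6 and KO-ORX 1, 3 or 5 (−0.15 to −0.18), and that of Ski without KO-ORX 1 (0.36).

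Tmem100 encodes a transmembrane protein whose gene responds to BMP9 and BMP10 through ALK1 in endothelium, and its spinalis values ran from 3.43 to 104 CPM. WT-SHAM libraries had 19.4 to 36.0 CPM (median 24.7) and WT-ORX libraries 7.53 to 16.5 CPM (median 10.6). KO-SHAM libraries had 3.84 to 7.79 CPM (median 6.31), and the KO-ORX libraries had 6.20, 6.59, 4.60, 6.13 and 6.19. In WT, ORX libraries lay below all SHAM libraries, whereas the KO groups overlapped at a level below every WT-SHAM library. ORX lowered Tmem100 2.33-fold in WT (log2 fold change −1.22 ± 0.17, edgeR adjusted p = 2e-05). In KO the log2 fold change was −0.06 ± 0.20, edgeR adjusted p = 0.90, a small value that was 0.051 with library-size scaling and above 0 without KO-SHAM 1 (0.012) or KO-ORX 3 (0.023), and it was −0.13 without KO-ORX 1 and 2. The interaction of 1.16 ± 0.27 was not called by edgeR (adjusted p = 0.088) or limma-voom (0.19) and was called by DESeq2 (0.018), with a range of 0.018 to 0.31. KO was 4.33-fold lower under SHAM (−2.11 ± 0.19, edgeR adjusted p = 1.4e-08) and 1.94-fold lower under ORX (−0.96 ± 0.20, edgeR adjusted p = 0.0021), without overlap. The call under ORX ended with limma-voom (adjusted p = 0.011) and without KO-ORX 1 and 2 together (−1.02, 0.011), in a range of 0.00023 to 0.011. Group means were 26.7 ± 7.38 CPM in WT-SHAM, 11.5 ± 3.35 in WT-ORX, 6.17 ± 1.30 in KO-SHAM (SD, n = 6 each) and 5.94 ± 0.770 in KO-ORX (n = 5), and the KO pair lay within its spread.

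DHT moved Tmem100 the other way. The WT-Empty libraries had 14.7, 9.63, 11.2, 12.7 and 8.55 CPM and WT-DHT libraries 62.6 to 104 CPM (median 76.0). All 6 WT-DHT libraries were far above the WT-Empty libraries, 6.86-fold by the fit (log2 fold change 2.78 ± 0.24, edgeR adjusted p = 5.7e-09). The KO-Empty libraries had 7.42, 3.43, 4.65, 4.65 and 4.91 CPM and KO-DHT libraries 5.00 to 14.7 CPM (median 7.13). These overlapped, and KO-DHT 1 and 4 (14.7 and 11.5) were the highest of the KO libraries. The log2 fold change in KO, 0.76 ± 0.24, missed 0.01 (edgeR adjusted p = 0.045), and the DHT response differed between genotypes, with an interaction of −2.02 ± 0.33, edgeR adjusted p = 0.00055. KO was 9.18-fold lower than WT with DHT (−3.20 ± 0.23, edgeR adjusted p = 3.5e-10) and 2.26-fold lower with empty implants (−1.18 ± 0.25, edgeR adjusted p = 0.0038). That last call ended without WT-Empty 1, KO-Empty 2 or KO-Empty 3 (−1.06 to −1.15), with adjusted p of 0.00056 to 0.012 over all alternatives. By group mean, WT-DHT (77.9 ± 16.0 CPM, SD, n = 6) was followed by WT-Empty (11.4 ± 2.46, n = 5), KO-DHT (8.47 ± 3.86, n = 6) and KO-Empty (5.01 ± 1.46, n = 5), where KO-DHT overlapped both of its neighbours.

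Because Tmem100 is known from endothelium, the 12 endothelial markers are given beside it. With DHT in WT, 3 of 12 were higher (Erg, Tie1 and Pecam1), against 6.63% of all genes, and 0 lower, and in KO 1 of 12 (Tie1) was higher, against 2.86%. Their summed level was 263 to 335 CPM in WT-Empty, 320 to 388 in WT-DHT, 265 to 346 in KO-Empty and 311 to 393 in KO-DHT. The 2 DHT groups thus covered nearly the same range of the endothelial sum, at 76.0 against 7.13 CPM of Tmem100 by median. Pecam1 was the most abundant of the 12, none of which was at 0 in all libraries. The list's median log2 fold change was 0.33 with DHT in WT and 0.26 in KO, against −0.01 over all genes in both, and −0.01 for KO against WT with DHT. In the gastrocnemius the sums were 325 to 434 CPM in WT-SHAM and 309 to 404 in WT-ORX. The part of endothelial content in the DHT response of Tmem100 was not tested.

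The patterns nearest to that of Tmem100 were those of Stab2 (root mean square difference 0.34), Shc2 (0.37), Igfn1 (0.43), Slc2a3 (0.44) and Atp13a5 (0.45), against a median of 1.24 over 13447 genes. Stab2, a scavenger receptor, had 27.2 to 46.6 CPM (median 36.7) in WT-DHT and 4.71 to 6.97 CPM (median 6.37) in KO-DHT, which did not overlap. Slc2a3, a glucose transporter, had 12.6 to 18.3 CPM (median 14.1) in WT-DHT and 1.77 to 3.09 CPM (median 2.25) in KO-DHT. These genes were chosen by their group means, so their levels are given without a test. No nearest gene of Tmem100 came as close to it as Gdf11 to Mstn.

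Of 13 transcriptional targets, KO lowered 3 under SHAM (Tmem100, Pmepa1 and Tgfbi), where 2.82% of all genes were lower, and 3 with DHT (Tmem100, Pmepa1 and Fbxo30), where 6.51% were. KO lowered 1 under ORX and 1 with empty implants, where 2.73% and 2.50% of all genes were lower. The list medians were −0.23 under SHAM, 0.09 under ORX, −0.16 with empty implants and −0.15 with DHT. The call of Tgfbi, a TGF-β-induced matrix protein (−0.30, edgeR adjusted p = 0.0087), ended without any 1 of KO-SHAM 1 to 5, WT-SHAM 1 to 5, KO-ORX 1, 2 or 5 and WT-ORX 2 (−0.27 to −0.32), without KO-ORX 1 and 2 together (−0.30), with limma-voom (−0.30) and with only the SHAM groups in the fit (−0.29). Pmepa1, a TGF-β-induced feedback inhibitor, was at 13.2 to 22.5 CPM (median 17.6) in WT-DHT and 7.39 to 9.28 CPM (median 7.73) in KO-DHT, apart from each other (log2 fold change −1.12 ± 0.14, edgeR adjusted p = 3.1e-06). Under SHAM it was at 8.40 to 13.7 CPM (median 10.5) in WT and 5.56 to 7.75 CPM (median 6.16) in KO (−0.78 ± 0.14, edgeR adjusted p = 0.00053). Fbxo30, a ubiquitin ligase that BMP signalling represses, was lower in KO with DHT (−0.36 ± 0.08, edgeR adjusted p = 0.0013) and lower with ORX in WT (−0.28 ± 0.06, edgeR adjusted p = 0.0022), and both calls ended with library-size scaling (−0.28 and −0.24).

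Over the whole pathway list of 101 genes, 87 had a row in the gastrocnemius and 86 in the spinalis. Because the list was chosen with earlier results of these data known, its shares are descriptive only. KO lowered 14 of 87 and raised 0 under SHAM, where 2.82% of all genes were lower and 2.48% higher, and the median log2 fold change of the list was −0.18 against −0.01. Under ORX, KO lowered 8 of 87 and raised 0 (2.73% and 1.07% of all genes), and the list's median was −0.02 against 0.01. With empty implants KO lowered 9 of 86 and raised 1 (2.50% and 1.75%), and with DHT it lowered 18 and raised 3 (6.51% and 5.13%). The list's median was −0.15 with empty implants and −0.15 with DHT, against 0.01 over all genes in both. DHT raised 12 and lowered 4 in WT (6.63% and 4.64%) and raised 5 and lowered 4 in KO (2.86% and 1.75%). ORX raised 5 and lowered 8 in WT (2.04% and 3.41%) and raised 9 and lowered 4 in KO (1.99% and 3.58%). These splits for treatment moved with library-size scaling. ORX then raised 4 and lowered 4 in WT (2.41% and 2.02% of all genes) and raised 11 and lowered 0 in KO (4.04% and 1.10%), and DHT raised 6 and lowered 7 in WT (4.54% and 5.87%) and raised 1 and lowered 3 in KO (2.08% and 1.5%). For genotype, KO then lowered 13 and raised 0 under SHAM (2.54% and 1.59%), lowered 6 and raised 0 under ORX (1.43% and 1.27%), lowered 8 and raised 1 with empty implants (1.48% and 1.66%) and lowered 15 and raised 3 with DHT (4.04% and 7.62%). The DHT interaction called 3 of 86 (Tmem100, Mstn and Nedd4l, all below 0), a share of 3.49% close to the 3.24% of all genes. The ORX interaction called 0 of 87 with edgeR, 22 at an unadjusted p under 0.05, 0 with limma-voom and 4 with DESeq2, and edgeR called 4 without KO-ORX 3.

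Not all of these calls held when libraries were left out one at a time. For DHT in KO, 6 of 9 ended without some single library, and the count was 5 without KO-Empty 1, 2 or 4 and 4 without KO-Empty 3, KO-DHT 2 or KO-DHT 4, as well as 4 with library-size scaling. For ORX in KO, 6 of 13 ended, and the count was 7 without KO-ORX 4, 7 without KO-ORX 1 and 2 together and 7 with only the KO groups in the fit. For genotype under ORX the count of 8 was 5 without KO-ORX 1 and 2, for genotype with empty implants the count of 10 was 6 with only those groups in the fit, and for ORX in WT the count of 13 was 8 with library-size scaling. Of the 14 calls for genotype under SHAM, 12 held with each library left out and with every other setting, among them Gdf11, Mstn, Tmem100, Smad3, Acvr2a, Bmpr1b and Tgif1. Of the 21 for genotype with DHT, 17 held with each library left out and 14 with every other setting run for them as well. Bmp8a, among these 14, was not in the fit with a minimum of 10 counts in every library. Of the 16 for DHT in WT, 11 held with each library left out and 8 with every other setting as well, and the 5 that ended without some single library were Bmp8a, Bmpr1b, Pmepa1, Tgfbr3 and Usp15.

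**Figure D3:**
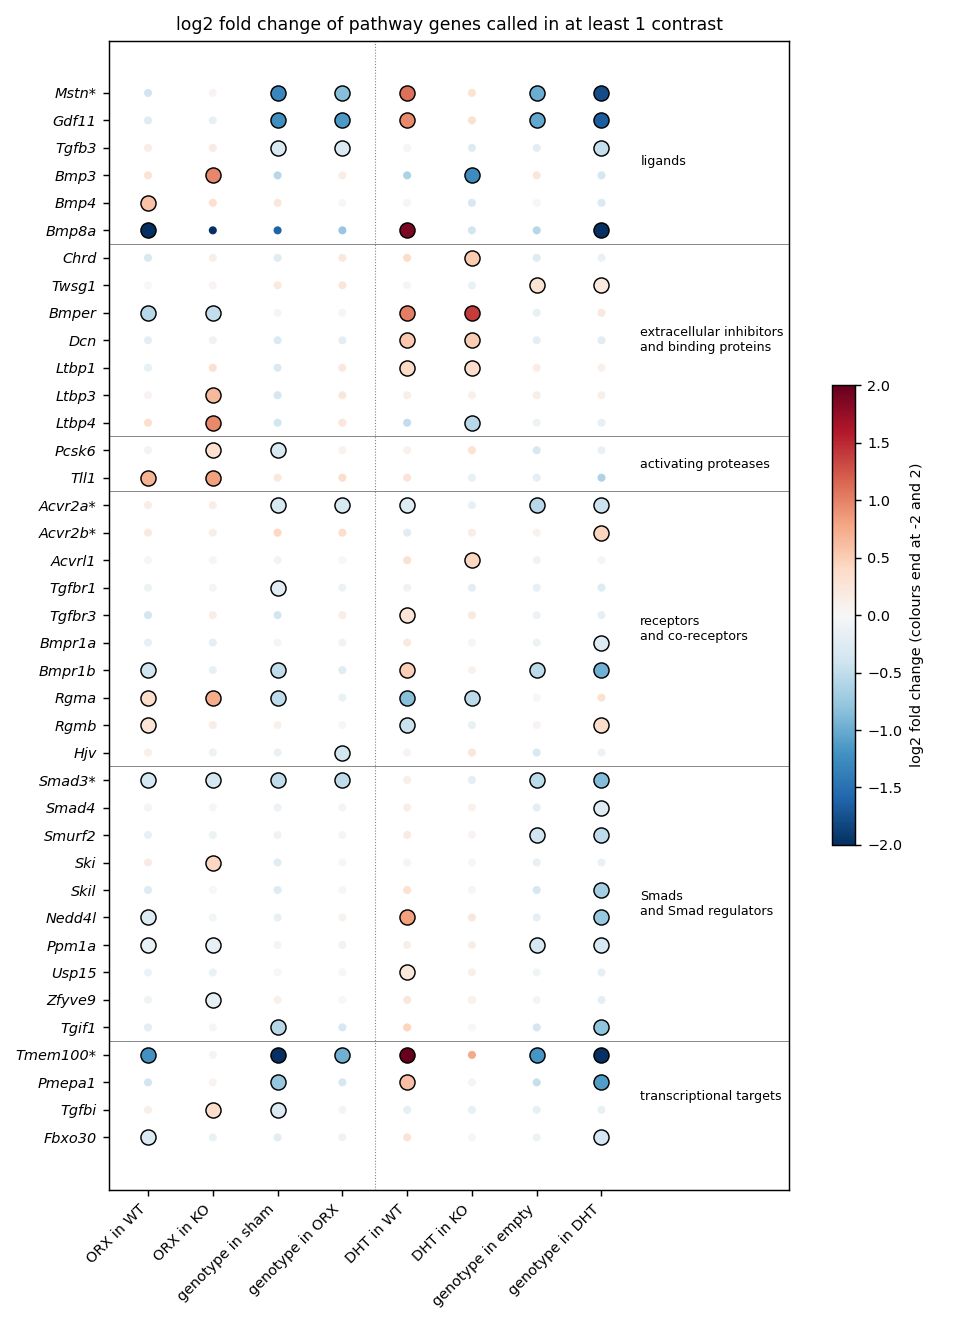
Log2 fold change (colour) of 39 pathway genes called in at least 1 of 8 comparisons, in rows by role, with listed genes starred. Large outlined circles mark the 96 calls shown at an edgeR adjusted p of at most 0.01, and small points did not pass. Genotype columns hold mostly lower values in KO, and Bmper takes opposite colours under ORX and DHT.

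Markers of other cell types moved in some of the same comparisons. Over all genes, the shares called higher and lower were 2.04% and 3.41% for ORX in WT, 1.99% and 3.58% for ORX in KO, 6.63% and 4.64% for DHT in WT, 2.86% and 1.75% for DHT in KO, 2.48% and 2.82% for genotype under SHAM and 5.13% and 6.51% for genotype with DHT. Of 5 satellite cell markers, KO raised 3 with DHT (Pax7 1.24 ± 0.25, edgeR adjusted p = 0.00070, Myf5 0.89 ± 0.20, edgeR adjusted p = 0.0024, Calcr 1.04 ± 0.26, edgeR adjusted p = 0.0054) and 1 under SHAM (Myf5 0.75 ± 0.18, edgeR adjusted p = 0.0053). The satellite sum, led by Sdc4, was 58.2 to 75.8 CPM in WT-DHT and 55.3 to 74.5 in KO-DHT. The median log2 fold change of the 5 was 0.89 with DHT and 0.54 under SHAM, with 4 of 5 at an unadjusted p under 0.05 in each. Of 8 slow myofibre markers, DHT lowered 1 in KO (Tpm3 −1.47 ± 0.36, edgeR adjusted p = 0.0089) and 0 in WT by edgeR. The median log2 fold change of the list with DHT was −1.62 in KO, where 8 of 8 had an unadjusted p under 0.05, and −1.10 in WT, where 7 of 8 did, against −0.01 over all genes in both. Their sums, led by Myh7, were 444 to 2173 CPM in WT-Empty, 252 to 1052 in WT-DHT, 948 to 2343 in KO-Empty and 322 to 1237 in KO-DHT, a wide spread within each group. Of 8 fast myofibre markers, ORX raised 2 and lowered 1 in WT and lowered 3 in KO, with Myh1 lower in both (−0.61 ± 0.14, edgeR adjusted p = 0.0050, in WT and −0.61 ± 0.15, edgeR adjusted p = 0.0074, in KO). Of 8 fibro-adipogenic markers, Lum was higher with ORX in both genotypes and lower with DHT in KO, and Pdgfra was lower with ORX and with DHT in WT. Of 6 smooth muscle and pericyte markers, DHT raised 1, Rgs5, in WT and in KO. The 5 tendon markers, led by Thbs4 in the gastrocnemius, had a median log2 fold change of −0.77 for genotype under SHAM (4 of 5 at an unadjusted p under 0.05, 0 called by edgeR) and 0.71 for ORX in KO (5 of 5, with Fmod called), the comparisons in which KO lowered 14 and ORX raised 9 of 87 pathway genes. Their sums were 299 to 763 CPM in WT-SHAM, 309 to 732 in WT-ORX, 202 to 512 in KO-SHAM and 332 to 844 in KO-ORX, which overlapped. The 6 adipocyte markers had a median of −0.67 with DHT in WT and 0.61 for genotype under ORX, and the 5 red cell markers 0.92 for genotype with empty implants, each with 4 at an unadjusted p under 0.05. KO-Empty 4 stood apart in the red cell sum, at 704 CPM against 99.9 to 281 in the other KO-Empty libraries, and in the immune sum, at 293 against 81.0 to 149. Their part in the differences of the signalling genes was not tested.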

How the data were processed

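RNA of 45 libraries was prepared with a stranded total RNA kit, and the deposited tables hold the raw count of reads per gene that the authors made with STAR 2.7.1b, SAMtools 1.9, Picard 2.20.2 and featureCounts of Subread 2.0.0 on GRCm39. The strand setting and annotation release of that counting are not given in the sources used here. The 2 tables were normalised separately with TMM in edgeR 4.0.16 (R 4.3.3) and fitted by its quasi-likelihood F-test, with the 4 groups of a table in 1 fit. Requiring 0.5 CPM in 2 or more libraries removed 0 genes. P-values were adjusted by Benjamini-Hochberg over all genes of a table, at 0.01 for effects and 0.05 for interactions. CPM were TMM-scaled, and log2 CPM used a prior count of 2. Fold changes came from the edgeR fit at its default prior count. Gene names, exon lengths and overlaps came from GENCODE M21 and promoters from RefSeq (GRCm38.p6).

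Named genes were the 10 members, up to 20 called pathway genes per comparison by smallest p, the 5 nearest patterns to Mstn and Tmem100, Actn3, and called markers. Orc4 was added after its values could be seen. The members and lists were chosen with earlier results of these data known. Alternatives were DESeq2 1.42.0, limma-voom (limma 3.58.1), library-size scaling, a minimum of 10 counts in every library, no filter, only the groups compared, other thresholds, the replicate number as a block, and leaving out each library. Leaving out KO-ORX 1 and 2 together was chosen after seeing the data. The sixth KO-ORX sample was not analysed here.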

Additional observations from a re-analysis of the deposited data

Results flagged for a closer look

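In groups of 5 or 6 libraries, 92 gene-and-group sets were examined for a library far from the others, over the 10 listed genes, Gdf11 and Actn3, and 5 held one. Chance alone gives about 1 in 20. The measure is the gap to the nearest library divided by the range of the group, both on log2 CPM. For Acvr2a, KO-DHT 3 was high (37.8 CPM, next 33.6, ratio 0.641) and WT-SHAM 1 was low (55.2 CPM, next 61.1, ratio 0.701). For Acvr2b, WT-DHT 2 was low (6.77 CPM, next 7.95, ratio 0.637). For Tmem100, KO-ORX 3 was low (4.60 CPM, next 6.13, ratio 0.798) and KO-SHAM 3 was low (3.84 CPM, next 6.02, ratio 0.636).

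The DHT effect differed between genotypes for 3 pathway genes by the edgeR interaction test, each with a log2 difference below 0. They are 3.49% of the 86 tested, close to the 3.24% of all genes called. These differences were −0.80 for Mstn, −0.58 for Nedd4l and −2.02 for Tmem100.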

How the results depend on the processing

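Of 4600 comparisons of the 163 called fold changes with an alternative, 4325 kept direction and side of the threshold, 275 lost the call and 0 reversed. The fit without a filter is left out of these, since the filter removed 0 genes and both fits are the same. Most of the alternatives left out 1 library and shared all others with the main fit, so their agreement was largely built in. The called fold changes also include those of Actn3 and of the genes nearest in pattern to Mstn and Tmem100. With library-size scaling, the members called were 1 for ORX in WT and 0 for ORX in KO, and the log2 fold change of Tmem100 with ORX in KO was 0.051. That scaling moved the median of all genes for ORX in KO from 0.01 to 0.12, and the percentage of all calls that were higher from 35.7 to 78.6 there, from 37.5 to 54.4 for ORX in WT, 28.2 to 46.9 for genotype under ORX, 58.8 to 43.6 for DHT in WT, 41.3 to 52.9 for genotype with empty implants, 44.1 to 65.3 for genotype with DHT, 41.5 to 55.1 for the DHT interaction and, with 4 and 3 calls, 75 to 100 for the ORX interaction. Without KO-ORX 1 and 2 together, the counts were 0 for ORX in KO and 2 for genotype under ORX, and Mstn with ORX in KO was −0.059. DESeq2 called 1 member in the ORX interaction. At 0.05, DHT in KO called 1, and at 0.01 the DHT interaction called 1. Leaving out each library gave 0 to 1 members for ORX in KO and 2 to 4 for genotype with empty implants, −0.021 to 0.14 for Mstn and −0.16 to 0.023 for Tmem100 with ORX in KO. Fewer samples enter when libraries are left out, and otherwise the cause was not tested.

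With the replicate number as a block, the gastrocnemius counts of members were the same as without it (2, 1, 4, 4 and 0). Among pathway genes, the calls of Ppm1a (−0.16) and Rgma (0.35) for ORX in WT and Zfyve9 (−0.17) for ORX in KO ended with it. What these numbers mark is not stated in the labels. The deviations of 6 of 33 same-number pairs from their group means correlated above 0.1 (range −0.15 to 0.19), and 8 of 23 libraries were most like the libraries of other groups with their own number, out of 6 numbers. Some same-number pairs thus deviated together and others did not. What lies behind this was not tested, and the main fit holds no term for these numbers. No paired analysis was run in the spinalis. Its columns carry codes in place of replicate numbers, and what libraries with neighbouring codes share is not given in the sources used here. A block on neighbouring codes was not tested. Fstl3, at 3 to 35 counts, had SEs of 0.41 to 0.44 on its log2 fold changes for effects.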

Other observations

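Of 6 proteases that activate these ligands, 5 had a row in each table. Tll1, of the tolloid protease family that cleaves the myostatin propeptide, was higher with ORX in WT (log2 fold change 0.69, edgeR adjusted p = 0.0021) and in KO (0.83, edgeR adjusted p = 0.00078). Pcsk6, a proprotein convertase, was lower in KO under SHAM (−0.33, edgeR adjusted p = 0.0014) and higher with ORX in KO (0.32, edgeR adjusted p = 0.0030). The call with ORX ended without KO-ORX 1, 2 or 4 (0.28 to 0.31), without KO-ORX 1 and 2 together (0.23, edgeR adjusted p = 0.065, range 0.00034 to 0.065) and with only the KO groups in the fit (0.32). The counts of proteases were thus 1 of 5 higher with ORX in WT (2.04% of all genes), 2 of 5 higher with ORX in KO (1.99%) and 1 of 5 lower in KO under SHAM (2.82%).

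Of 7 immune markers with a row, KO raised Cd3e under SHAM and ORX and lowered Csf1r under SHAM, ORX in WT raised Itgax and lowered Csf1r, and DHT in KO lowered Itgax. Of 6 adipocyte markers DHT lowered Cfd in WT, and of 5 tendon markers ORX raised Fmod in KO and KO lowered Scx with DHT.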
